A study of Homo sapiens with 48 samples.

Results

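The 10 genes described here encode chains of non-fibrillar collagens: COL4A1, COL4A2, COL6A1, COL6A2, COL6A3, COL7A1, COL8A1, COL12A1, COL15A1 and COL16A1. They were chosen by name from the 29744 genes of a table of estimated counts, and all 10 were found. Earlier results of these data were known at that choice, so shares of members called, set beside all genes below, are descriptions. They were followed in immortalized human skin fibroblasts (CRL-4001) in which mNeonGreen, a fluorescent protein, was inserted at IL11 and single-cell clones were grown. Active Cas9 was expressed in the CRISPRko arm. The CRISPRa arm expressed dCas9–VP64, an inactive Cas9 joined to a transcriptional activator. Each arm was infected with a non-targeting guide or a guide to GLIS3, a zinc-finger transcription factor, and was kept as a drug-selected bulk population, so a knockout line may hold cells with different edits. Each of the 4 lines received TGFβ with IL-1β, each at 10 ng per ml, for 0, 6, 12 or 24 h, with all cells collected together, and 3 libraries were sequenced for each of the 16 conditions.

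The lines are named as in the sample descriptions: H47_Ctrl and H47_KO for the CRISPRko arm, VP64_Ctrl and VP64_A for CRISPRa. In the CRISPRa arm the sample titles name the opposite line as the control. The 12 VP64_A libraries held 13.5 to 38 CPM of GLIS3 (a count divided by the library's total and put on a fixed scale) and the 12 VP64_Ctrl libraries 2.31 to 5.29 CPM. In the other arm it lay between 1.55 and 8.63 CPM in H47_Ctrl and between 0.146 and 2.46 CPM in H47_KO. The descriptions were therefore followed, and every direction given for VP64_A would turn around if the titles were right. The cell line field reads as a GLIS3 knockout for all 48 samples, controls included, and was not used. One population stood behind each line, and the labels do not say whether the 3 libraries of a condition came from separate cultures. The p-values therefore measure the spread between libraries, which may be technical, and not between independently made lines.

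Non-fibrillar collagens do not build the banded fibres of types I, III and V. Type IV forms the sheet of basement membranes, type VI forms beaded microfilaments from 3 different chains, type VII forms the fibrils that anchor epithelium to dermis, and type VIII is a short network-forming collagen of vessel walls and wounds. Types XII and XVI sit on the surface of fibrils and link them to the surrounding matrix, and type XV lies between basement membranes and fibrils. Fibroblasts make most of these chains, and TGFβ is a classical inducer of matrix genes in them.

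Library totals ran from 2321990 to 10661004 estimated counts, with medians between 4458155 and 5476646 in the 4 lines. All 10 fibroblast markers examined exceeded 3 counts in every library. Of 7 epithelial markers, the defining genes EPCAM and ESRP1 were at 0 in every library, but KRT14 reached 640 counts, and the summed epithelial level was 15.2 to 85.3 CPM in VP64_A, 2.27 to 13.9 CPM in VP64_Ctrl, 0 to 3.64 CPM in H47_Ctrl and 0 to 1.69 CPM in H47_KO. Of 6 endothelial markers, KDR and ERG were at 0 in every library and the sum never exceeded 3.85 CPM. Of 6 smooth muscle and pericyte markers, led by ACTA2, the sum was 412 to 1400 CPM in H47_Ctrl, 525 to 2020 in H47_KO, 37.7 to 123 in VP64_Ctrl and 28.1 to 81.8 in VP64_A. ACTA2 had a median of 265 CPM over all libraries, beside 0 for MYH11 and DES, 0.603 for RGS5, 0.69 for NOTCH3 and 1.29 for CNN1. The sum is thus mainly a level of ACTA2. Of 6 leukocyte markers, CD3E, LYZ and MS4A1 were at 0 in every library, and the sums, from 16.9 to 80.6 CPM, came with CD68. The part of these levels in the results below was not tested. In bulk libraries, fewer cells of a type and less RNA per cell cannot be told apart.

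Promoters of 8 of the 10 members were present among the RefSeq windows of 250 bases before and 50 bases after a gene's start (GRCh38.p14). COL6A1 and COL8A1 had no window. COL4A1 and COL4A2 lie head to head on chromosome 13, with 126 bases between their start sites, which makes this interval the shared promoter of both type IV chains and the first sequence shown. COL6A2 is shown for a type VI chain that was lower in H47_KO and higher in VP64_A, COL12A1 for a member that moved the opposite way, and COL7A1 for the member with the largest cytokine response. All are written 5′ to 3′ on the gene's strand (the COL4A2 strand for the shared interval), end at the base before the start, and have any match to the motifs below in capitals.
COL4A1/COL4A2 (chr13:110307158-110307283, plus strand): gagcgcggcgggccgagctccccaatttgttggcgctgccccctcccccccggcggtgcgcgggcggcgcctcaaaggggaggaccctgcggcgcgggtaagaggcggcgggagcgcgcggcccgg
COL6A2 (chr21:46097862-46098111, plus strand): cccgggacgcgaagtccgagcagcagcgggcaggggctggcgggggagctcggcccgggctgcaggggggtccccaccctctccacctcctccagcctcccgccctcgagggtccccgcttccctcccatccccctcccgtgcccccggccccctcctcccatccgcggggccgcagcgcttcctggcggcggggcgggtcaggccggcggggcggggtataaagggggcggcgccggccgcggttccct
COL7A1 (chr3:48595330-48595579, minus strand): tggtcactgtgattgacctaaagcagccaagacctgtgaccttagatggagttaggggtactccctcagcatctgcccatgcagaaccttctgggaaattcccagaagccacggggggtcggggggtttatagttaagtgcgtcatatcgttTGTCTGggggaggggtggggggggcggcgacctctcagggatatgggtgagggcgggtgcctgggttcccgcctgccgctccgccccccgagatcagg
COL12A1 (chr6:75206054-75206303, minus strand): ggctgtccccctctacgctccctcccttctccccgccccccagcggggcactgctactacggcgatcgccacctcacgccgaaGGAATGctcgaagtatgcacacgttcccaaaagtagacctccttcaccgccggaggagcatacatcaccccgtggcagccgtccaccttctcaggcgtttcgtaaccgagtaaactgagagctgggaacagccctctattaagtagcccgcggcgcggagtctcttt
The GLIS motif TGGGGGGT was searched on both strands and was in 0 of the 8 member windows, beside 1.47% of all 35116 windows. The AP-1 motif TGANTCA was in 0 of 8 (7.71% of all). The TEAD motif GGAATG was in 1 of 8 (14% of all), 167 bases before the start of COL12A1. The SMAD motif CAGACA was in 2 of 8 (16.9% of all): on the opposite strand, as TGTCTG, 98 bases before the start of COL7A1, and 27 bases after the start of COL16A1. GC content was 80.2% in the COL4A1/COL4A2 interval and 79.6% in the COL6A2 sequence, against 60.8% in COL7A1 and 61.2% in COL12A1. A match is a description of letters in these windows and not a bound site.

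Transcript levels differed widely among the members. On the TPM scale, which corrects for transcript length, COL4A1 led in H47_Ctrl with a median of 161 TPM over 12 libraries (range 93.9 to 206), followed by COL6A3 with 150 (107 to 196) and COL4A2 with 85.7 (59.5 to 105). COL6A1 came next with 43.6 TPM (23.3 to 53.2). COL12A1, COL6A2, COL16A1 and COL8A1 lay close together, at medians between 21.6 and 25.9 TPM, and their ranges overlapped. COL7A1 stood at 12.4 TPM (4.02 to 19), and COL15A1 at 0.30 TPM (0 to 1.00), below every library of every other member. Neighbours in this order had overlapping ranges at COL4A1 and COL6A3, from COL6A1 to COL12A1 and from COL8A1 to COL7A1, but not at COL6A3 and COL4A2, at COL4A2 and COL6A1 or at COL7A1 and COL15A1.

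The order of the members was not the same in every line. COL8A1 was the 8th most abundant member in H47_Ctrl (median 21.6 TPM) and the 4th in H47_KO (35.9 TPM). It was the 5th in VP64_Ctrl (25.1 TPM) and the 8th in VP64_A (6.32 TPM). COL6A1 moved the other way, from the 4th in H47_Ctrl to the 6th in H47_KO (25.9 TPM) and from the 6th in VP64_Ctrl (17.3 TPM) to the 4th in VP64_A (56.0 TPM). COL4A1 and COL6A3 held the top 2 places in all 4 lines and COL15A1 the lowest. COL15A1 had 0 to 22 counts per library and was left out of the CRISPRa tests by the filter on low counts, so the CRISPRko arm has 10 tested members and the CRISPRa arm 9.

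**Figure D1:**
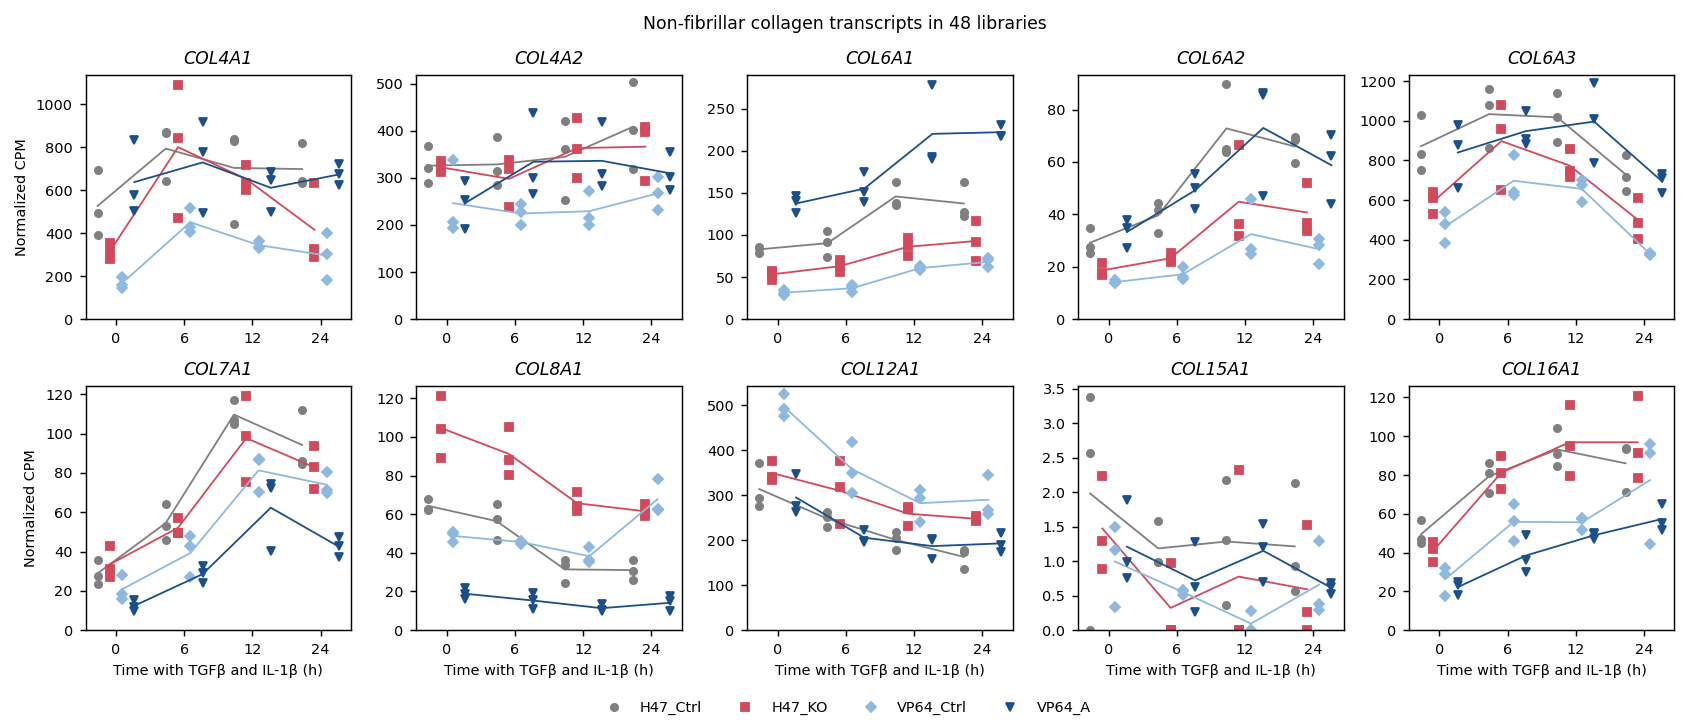
Normalized CPM (linear axes from 0, scaled by TMM within each arm) of the 10 collagen genes in 48 libraries against hours with TGFβ and IL-1β. Each point is 1 library, lines join the means of 3, and the scales of the 2 arms were set separately. Within each arm COL6A1 lies lower in H47_KO and higher in VP64_A than in the control line, COL8A1 lies the other way round, and COL15A1 stays near 0.

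The first question was which members differ between the GLIS3-targeted line and its control. Averaged over the 4 times, the 3 type VI chains were lower in H47_KO and higher in VP64_A, while COL8A1 and COL12A1 were higher in H47_KO and lower in VP64_A. In the CRISPRko arm 2 of 10 members were higher, where 1.98% of 10962 genes were called higher, and 3 of 10 were lower, where 1.09% were called lower. In the CRISPRa arm 5 of 9 members were higher, beside 9.15% of 10980 genes, and 4 of 9 were lower, beside 9.23%. A call is an adjusted p under 0.05 in edgeR's quasi-likelihood test, adjusted by Benjamini-Hochberg over all genes tested. The median log2 fold change of the members tested was -0.23 in H47_KO and 0.34 in VP64_A, beside -0.0085 and -0.0037 over all genes.

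Among the 10691 genes tested in both arms, which share no libraries, 0.355% were called lower in H47_KO and higher in VP64_A. These include 3 of the 9 members: COL6A1, COL6A2 and COL6A3. The opposite pair of calls was made for 0.832% of genes and for 2 members, COL8A1 and COL12A1. Calls in the same direction in both arms were made for 0.346% of genes and for 0 of the 9 members by edgeR, also by DESeq2 and also at an unadjusted p under 0.05. COL4A2, COL7A1 and COL16A1 were called in the CRISPRa arm alone, as was COL4A1, which was also called lower in H47_KO when no filter on low counts was used.

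**Figure D2:**
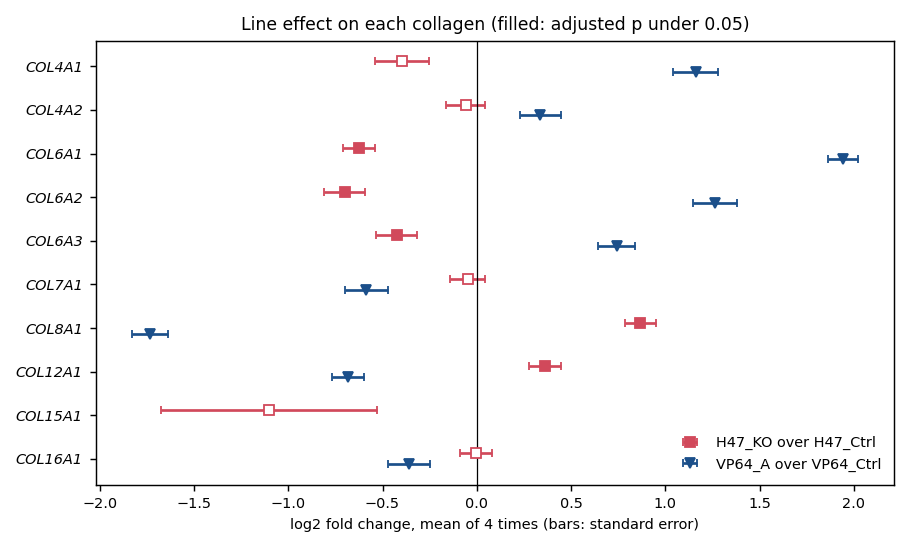
Log2 fold change (x axis, mean of the 4 times, bars give the standard error) of each collagen gene in H47_KO over H47_Ctrl (squares) and VP64_A over VP64_Ctrl (triangles). Filled symbols have an adjusted p under 0.05. COL6A1, COL6A2 and COL6A3 lie left of 0 in H47_KO and right of 0 in VP64_A, COL8A1 and COL12A1 the reverse. COL15A1 has no CRISPRa value.

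Type VI collagen is assembled from an α1, an α2 and an α3 chain in each monomer. COL6A1 (chromosome 21, 45981770 to 46005050, plus strand, GENCODE release 44) and COL6A2 (chromosome 21, 46098112 to 46132848, plus strand) are neighbours, with 93061 bases between them, and COL6A3 lies on chromosome 2 (237324003 to 237414328, minus strand). In H47_Ctrl, COL6A1 measured 85.2, 84.5 and 78.9 normalized CPM at 0 h, 105, 74.2 and 91.5 at 6 h, 138, 136 and 163 at 12 h, and 127, 163 and 122 at 24 h. In H47_KO it measured 57.3, 46.9 and 55.2 CPM at 0 h, 62.8, 70.4 and 55.5 at 6 h, 74.4, 87.0 and 96.3 at 12 h, and 92.1, 117 and 69.4 at 24 h. At each time every H47_KO library lay below every H47_Ctrl library. The averaged log2 fold change was -0.63 (SE 0.085, adjusted p = 1.32e-05).

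The separation of COL6A1 was wider in the CRISPRa arm. In VP64_Ctrl it measured 34.1, 31.2 and 29 CPM at 0 h, 31.7, 40.1 and 38.2 at 6 h, 63.3, 58.4 and 60.2 at 12 h, and 72.4, 61.6 and 70.0 at 24 h. In VP64_A it measured 126, 146 and 140 CPM at 0 h, 151, 139 and 175 at 6 h, 190, 192 and 278 at 12 h, and 217, 231 and 218 at 24 h. The lowest VP64_A library, at 126 CPM, was above the highest VP64_Ctrl library of any time, at 72.4 CPM. COL6A1 was 3.84-fold higher in VP64_A on average (log2 fold change 1.94, SE 0.079, adjusted p = 6.11e-19), the largest change of any member in either arm.

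COL6A2 followed COL6A1 with a smaller CRISPRa change. At 0 h it measured 34.7, 27.5 and 25.4 CPM in H47_Ctrl against 21.4, 17 and 17.5 in H47_KO. At 0 h in the other arm it measured 14.8, 13.8 and 13.8 CPM in VP64_Ctrl against 27.1, 37.9 and 34.8 in VP64_A. The averaged log2 fold change was -0.70 in H47_KO (SE 0.108, adjusted p = 1.08e-04) and 1.26 in VP64_A (SE 0.115, adjusted p = 2.55e-10). H47_KO and H47_Ctrl libraries were apart at 0, 6 and 24 h, whereas 1 H47_KO library at 12 h (66.3 CPM) reached the control range. VP64_A and VP64_Ctrl libraries were apart at all 4 times.

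COL6A3, the largest of the classical type VI chains, changed least of the 3. At 0 h it measured 1030, 833 and 752 CPM in H47_Ctrl against 609, 639 and 529 in H47_KO. At 24 h it measured 333, 328 and 325 CPM in VP64_Ctrl against 732, 634 and 714 in VP64_A. H47_KO libraries overlapped with H47_Ctrl at 6 h, and VP64_A with VP64_Ctrl at no time. Averaged over the times, the log2 fold change was -0.43 in H47_KO (SE 0.107, adjusted p = 0.0204) and 0.74 in VP64_A (SE 0.097, adjusted p = 5.61e-07). The H47_KO call was lost without H47_Ctrl replicate 1 at 0 h (log2 fold change -0.39, adjusted p = 0.0567).

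COL8A1 (chromosome 3, 99638475 to 99799226, plus strand), the α1 chain of type VIII, moved in the opposite direction to the type VI chains. In H47_Ctrl it measured 62.8, 67.6 and 62.4 CPM at 0 h, 46.4, 57.5 and 65.3 at 6 h, 33.5, 24.5 and 36.3 at 12 h, and 30.8, 36.5 and 25.9 at 24 h. In H47_KO it measured 104, 121 and 88.9 CPM at 0 h, 88.1, 105 and 80.4 at 6 h, 71.6, 61.4 and 64.0 at 12 h, and 65.0, 58.9 and 60.5 at 24 h. Every H47_KO library was above every H47_Ctrl library of its time, and the averaged increase was 1.82-fold (log2 fold change 0.87, SE 0.082, adjusted p = 1.51e-08).

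In VP64_Ctrl COL8A1 measured 49.5, 51.0 and 45.7 CPM at 0 h, 44.8, 46.2 and 45.8 at 6 h, 43.2, 36.3 and 35.2 at 12 h, and 78.4, 62.5 and 62.4 at 24 h. In VP64_A it measured 15.9, 22 and 18.6 CPM at 0 h, 19, 11.1 and 15.8 at 6 h, 9.98, 10.5 and 13.6 at 12 h, and 17.5, 9.95 and 15 at 24 h. The highest VP64_A library, at 22 CPM, lay below the lowest VP64_Ctrl library of any time, at 35.2 CPM. COL8A1 was 3.33-fold lower in VP64_A on average (log2 fold change -1.73, SE 0.096, adjusted p = 1.95e-15).

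COL12A1 (chromosome 6, 75084326 to 75206267, minus strand), a fibril-associated collagen of tendon, skin and strained matrix, went the same way as COL8A1 by smaller amounts. At 24 h it measured 179, 173 and 136 CPM in H47_Ctrl and 242, 247 and 253 in H47_KO. At 0 h it measured 475, 524 and 491 CPM in VP64_Ctrl and 275, 262 and 347 in VP64_A. H47_KO libraries lay above H47_Ctrl at 12 and 24 h, and VP64_A libraries below VP64_Ctrl at all 4 times. The averaged log2 fold change was 0.36 in H47_KO (SE 0.086, adjusted p = 0.0126) and -0.68 in VP64_A (SE 0.087, adjusted p = 2.81e-07). With limma on log2(TPM + 1) the H47_KO call was lost (0.305 on that scale, adjusted p = 0.364).

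Over all genes tested, 0.0821% had every H47_KO library below every H47_Ctrl library at each of the 4 times, COL6A1 among them, and 0.21% had them all above, COL8A1 among them. In the CRISPRa arm 1.55% of genes had all VP64_A libraries above all VP64_Ctrl libraries at each time, including COL6A1, COL6A2 and COL6A3, and 1.22% had them below, including COL8A1 and COL12A1. The share of all genes with libraries apart at a single time was not computed. Separations at single times, here and below, are therefore descriptions of a member's libraries only.

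The type IV chains, which form heterotrimers of 2 α1 chains and 1 α2 chain, were not equally affected. COL4A1 (chromosome 13, 110148963 to 110307157, minus strand) measured 144, 198 and 159 CPM in VP64_Ctrl and 502, 834 and 576 in VP64_A at 0 h. At 24 h it measured 304, 400 and 183 CPM in VP64_Ctrl and 673, 721 and 624 in VP64_A. It was 2.24-fold higher on average (log2 fold change 1.16, SE 0.12, adjusted p = 4.75e-09), and libraries overlapped only at 6 h. In the CRISPRko arm its averaged log2 fold change was -0.40 (SE 0.143) and did not pass the test (adjusted p = 0.133). Without H47_KO replicate 1 at 24 h, which measured 632 CPM beside 288 and 327, it did (log2 fold change -0.51, adjusted p = 0.0224), and also with no filter on low counts (-0.398, adjusted p = 0.0243).

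COL4A2 (chromosome 13, 110305812 to 110513209, plus strand) changed less than COL4A1. At 0 h it measured 207, 194 and 338 CPM in VP64_Ctrl and 192, 254 and 294 in VP64_A, which overlap. At 6 h it measured 201, 245 and 227 CPM in VP64_Ctrl and 265, 300 and 438 in VP64_A. At 12 h it measured 215, 200 and 273 CPM in VP64_Ctrl and 309, 282 and 418 in VP64_A. Every VP64_A library was thus above every VP64_Ctrl library at 6 and 12 h, where the log2 fold changes of 0.58 and 0.56 did not pass the test (adjusted p = 0.178 and 0.175). Its averaged log2 fold change was 0.34 in VP64_A (SE 0.108, adjusted p = 0.0272) and -0.06 in H47_KO (SE 0.102, adjusted p = 0.829). The VP64_A call was lost when any 1 of 9 libraries was left out: VP64_A replicate 3 at 0, 6 or 12 h or replicate 2 at 24 h, or VP64_Ctrl replicate 1 or 2 at 0 h, 1 at 6 h, 2 at 12 h or 2 at 24 h (log2 fold change 0.28 to 0.31, adjusted p = 0.051 to 0.0687). The annotated genes of COL4A1 and COL4A2 overlap on opposite strands, as COL4A2 does with COL4A2-AS1 and COL4A2-AS2 and COL16A1 with PEF1-AS1. The strand setting of the counting is not given in the sources used here, so reads from such overlaps cannot be assigned with certainty.

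COL7A1 and COL16A1 were both lower in VP64_A and close to their control in H47_KO. COL7A1 (chromosome 3, 48564073 to 48595329, minus strand) measured 80.6, 70.0 and 71.3 CPM in VP64_Ctrl and 47.3, 42.6 and 37.4 in VP64_A at 24 h. Its averaged log2 fold change was -0.59 in VP64_A (SE 0.112, adjusted p = 2.36e-04) and -0.05 in H47_KO (SE 0.093, adjusted p = 0.848). COL16A1 (chromosome 1, 31652263 to 31704319, minus strand) measured 91.6, 96.2 and 44.2 CPM in VP64_Ctrl and 55.4, 64.9 and 51.8 in VP64_A at 24 h, with the low VP64_Ctrl library below all 3 others. Its averaged log2 fold change was -0.36 in VP64_A (SE 0.113, adjusted p = 0.0237) and -0.0052 in H47_KO (SE 0.084, adjusted p = 0.987). The COL16A1 call was lost without VP64_A replicate 1 at 0 h or 2 at 6 h, or VP64_Ctrl replicate 2 at 6 h or 1 at 24 h (log2 fold change -0.32 to -0.33, adjusted p = 0.0519 to 0.0564).

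COL15A1 (chromosome 9, 98943179 to 99070792, plus strand) was at or near the detection limit. It had 0 to 21 counts per library in H47_Ctrl, 0 to 17 in H47_KO, 0 to 14 in VP64_Ctrl and 1 to 22 in VP64_A. Its averaged log2 fold change in H47_KO was -1.10 with a standard error of 0.574 (adjusted p = 0.347), so a difference was not detectable at this depth. The value was -2.38 without H47_KO replicate 2 at 12 h and -2.1 without H47_KO replicate 3 at 6 h, and neither passed.

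At single times, with 3 libraries against 3, COL8A1 was the one member called in the CRISPRko arm by edgeR with its filter on low counts. It was higher in H47_KO at 0 h (log2 fold change 0.70, SE 0.155, adjusted p = 0.0355), where 0.173% of genes were called higher, and at 6 h (0.69, SE 0.161, adjusted p = 0.0461), where 0.274% were. It was also higher at 12 h (1.07, SE 0.17, adjusted p = 0.00187), beside 0.0547% of genes, and at 24 h (1.00, SE 0.167, adjusted p = 0.00201), beside 0.137%. The call at 0 h was lost without any 1 of 5 libraries, the 3 of H47_Ctrl and replicates 1 and 2 of H47_KO (adjusted p = 0.0943 to 0.232), and that at 6 h without any 1 of the 6 (0.056 to 0.396). It was lost at 12 h without H47_Ctrl replicate 2 (0.0514) and at 24 h without H47_Ctrl replicate 3 (0.0663), and the log2 fold change stayed between 0.56 and 0.91 in all of these. COL6A1 came closest among the others, at -0.64 at 0 h (adjusted p = 0.0787) and -0.76 at 12 h (adjusted p = 0.0738). More members were called at several of these times by DESeq2 or without the filter on low counts, as given below.

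In the CRISPRa arm the calls at single times came in both directions. At 0 h 4 of 9 members were higher, COL4A1, COL6A1, COL6A2 and COL6A3, beside 4.29% of genes, and 3 were lower, COL7A1, COL8A1 and COL12A1, beside 5.12%. At 6 h COL6A1 and COL6A2 were higher, 2 of 9 beside 1.86% of genes, and COL8A1 and COL12A1 were lower, 2 of 9 beside 1.9%. At 12 h COL4A1, COL6A1 and COL6A2 were higher, 3 of 9 beside 2.37%, and COL8A1 and COL12A1 lower, beside 1.94%. At 24 h the 4 members called higher at 0 h were again called, beside 1.99% of genes, as were the 3 called lower, beside 2.13%. COL6A1 and COL6A2 were thus higher and COL8A1 and COL12A1 lower at all 4 times. COL12A1 came nearest to the threshold, with an adjusted p of 0.0421 at 12 h and 0.0473 at 24 h. At 24 h its call was lost when any 1 of the 6 libraries was left out (log2 fold change -0.44 to -0.68, adjusted p = 0.0552 to 0.32), and at 12 h when any but VP64_Ctrl replicate 2 was (-0.49 to -0.66, 0.0534 to 0.226). The COL4A1 call at 12 h was lost without any library but VP64_A replicate 2 (0.73 to 0.87, adjusted p = 0.087 to 0.17). That of COL7A1 was lost at 0 h without VP64_A replicate 1 or 3 or VP64_Ctrl replicate 3 (-0.47 to -0.72, adjusted p = 0.106 to 0.328), and at 24 h without VP64_A replicate 2 or 3 or VP64_Ctrl replicate 1 (-0.72 to -0.81, 0.0757 to 0.161).

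The estimated size of the effect varied with time for some members more than for others, but the test below called none of them. COL8A1 in VP64_A went from a log2 fold change of -1.38 (SE 0.177) at 0 h through -1.58 (0.195) and -1.75 (0.2) to -2.24 (0.193) at 24 h. COL6A1 went from 2.12 (SE 0.157) at 0 h to 1.70 (0.155) at 24 h. COL4A1 had its largest value at 0 h, 1.93 (SE 0.245), and its smallest at 6 h, 0.70 (0.238). The test of the difference between 24 h and 0 h (the interaction of line and time) leaves out 6 and 12 h, and so the smallest value of COL4A1. It called 0.209% of genes and 0 of the 9 members in the CRISPRa arm. Its unadjusted p was 0.00228 for COL8A1 (difference -0.86, SE 0.259, adjusted p = 0.288) and 0.0348 for COL4A1 (difference -0.74, SE 0.336, adjusted p = 0.657), the 2 members under 0.05. In the CRISPRko arm the same test in edgeR called 0% of genes and 0 of 10 members, with 616 genes and 0 members at an unadjusted p under 0.05, and DESeq2 called 0 members.

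**Figure D3:**
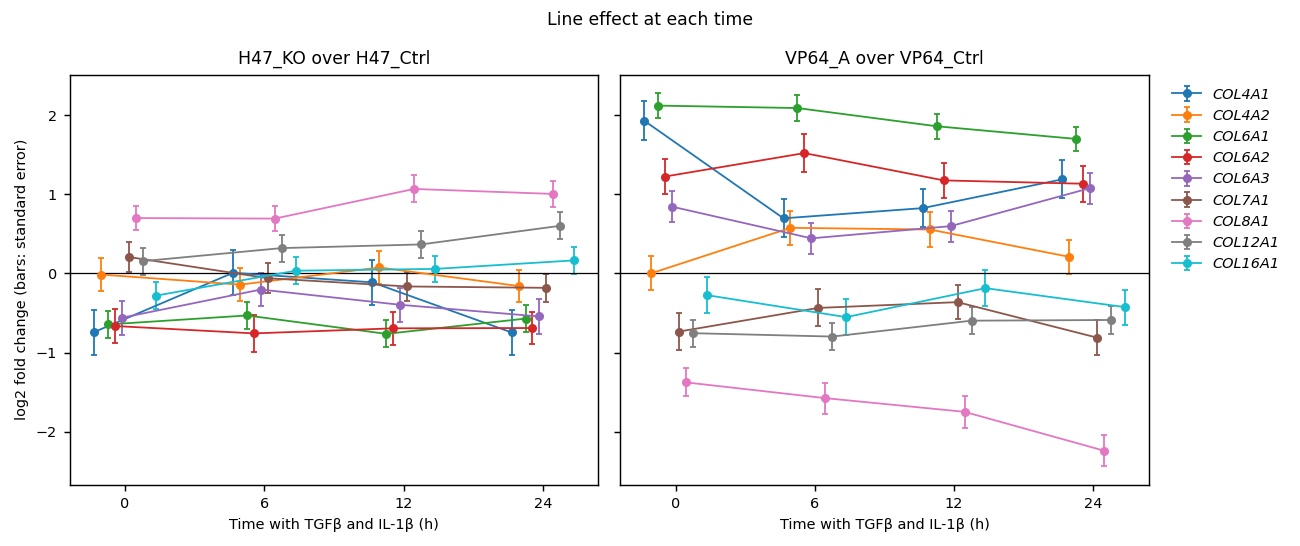
Log2 fold change (y axis, bars give the standard error) of 9 collagen genes at each time with TGFβ and IL-1β (x axis), in H47_KO over H47_Ctrl (left) and VP64_A over VP64_Ctrl (right). COL15A1 is not drawn. COL8A1 lies on top on the left and at the bottom on the right, where it falls from -1.38 to -2.24, and COL6A1 is on top on the right.

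Chains of one trimer were also compared with each other inside each library, a ratio that does not depend on scaling between libraries. COL6A1 over COL6A3 had a median ratio of 0.192 in VP64_Ctrl (range 0.103 to 0.491) and 0.431 in VP64_A (0.291 to 0.806), on the TPM scale. The mean log2 ratio of the counts was 1.20 higher in VP64_A (exact permutation test within times, two-sided, n = 12 per line, p = 1.25e-05, the smallest the 160000 regroupings can give, adjusted p = 1e-04 over 8 tests). COL6A1 over COL6A2 had a median of 1.78 in VP64_Ctrl and 2.74 in VP64_A, a log2 difference of 0.68 (exact permutation test, adjusted p = 0.00035). COL6A2 over COL6A3 went from 0.110 to 0.165, a log2 difference of 0.52 (exact permutation test, adjusted p = 0.0119). Averaged over the 4 times, the 3 type VI chains were therefore shifted by unequal amounts in VP64_A, COL6A1 most and COL6A3 least. The log2 count ratios of COL6A1 over COL6A3 were apart at all 4 times. Those of COL6A1 over COL6A2 overlapped at 12 h (lowest VP64_A 1.16, highest VP64_Ctrl 1.36) and at 24 h (1.71 and 1.72). Those of COL6A2 over COL6A3 met at -4.69 at 0 h and overlapped at 12 h (lowest VP64_A -4.41, highest VP64_Ctrl -3.88) and at 24 h. At 24 h they were -3.56, -3.17 and -4.02 in VP64_A and -3.44, -3.53 and -3.93 in VP64_Ctrl. The log2 fold changes at 24 h were 1.13 for COL6A2 and 1.08 for COL6A3.

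In the CRISPRko arm the type VI ratios moved less. COL6A2 over COL6A3 had a median of 0.133 in H47_Ctrl and 0.110 in H47_KO, and its log2 difference of -0.29 passed the test (exact permutation test, adjusted p = 0.0205). COL6A1 over COL6A3 differed by -0.20 (exact permutation test, adjusted p = 0.131) and COL6A1 over COL6A2 by 0.091 (adjusted p = 0.487). For type IV, the median of COL4A1 over COL4A2 was 1.38 in VP64_Ctrl and 2.07 in VP64_A, a log2 difference of 0.82 (exact permutation test, adjusted p = 0.00885). Its log2 count ratios were apart at 0 and 24 h and overlapped at 6 and 12 h. At 6 h they were 1.79, 1.37 and 0.173 in VP64_A and 1.09, 0.727 and 1.19 in VP64_Ctrl. The median was 1.90 in H47_Ctrl and 1.38 in H47_KO, a log2 difference of -0.36 that missed the threshold (exact permutation test, p = 0.0521, adjusted p = 0.0695).

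**Figure D4:**
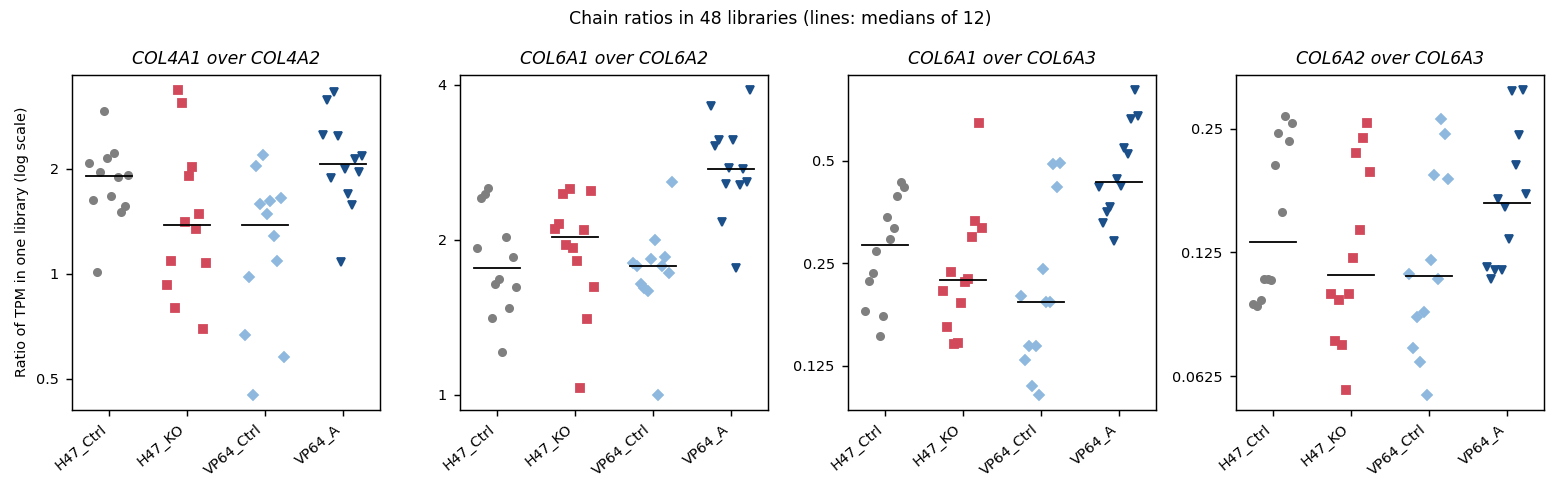
Ratio of the TPM of 2 chains in each of 48 libraries (log axes), 12 libraries per line in order of time, with black lines at the medians. COL6A1 over COL6A3 is 0.192 in VP64_Ctrl and 0.431 in VP64_A at the median, and COL4A1 over COL4A2 is 1.38 and 2.07.

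The next question was how the members respond to TGFβ and IL-1β and whether that response depends on the line. COL7A1, COL16A1, COL6A1 and COL6A2 were higher at 24 h than at 0 h in all 4 lines, and COL12A1 was lower in all 4. In H47_Ctrl 4 of 10 members were called higher, beside 6.53% of genes, and 2 lower, COL8A1 and COL12A1, beside 3.73%. H47_KO gave 4 higher, beside 9.07%, and the same 2 lower, beside 6.78%. VP64_Ctrl gave 5 of 9 higher, with COL4A1 as the added member, beside 10.4%, and 1 lower, beside 5.57%. VP64_A gave 4 of 9 higher, beside 9% of genes, and 1 lower, beside 4.55%.

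COL7A1 had the largest response. In H47_Ctrl it measured 35.8, 23.3 and 27.6 CPM at 0 h and 86.2, 112 and 84.4 CPM at 24 h, with no overlap. It rose 3.22-fold in H47_Ctrl (log2 fold change 1.69, SE 0.191, adjusted p = 5.26e-08), 2.45-fold in H47_KO, 3.61-fold in VP64_Ctrl and 3.43-fold in VP64_A. Its group means were highest at 12 h in all 4 lines, where the H47_Ctrl libraries measured 117, 107 and 105 CPM.

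COL16A1 rose 1.75-fold in H47_Ctrl (adjusted p = 0.00121), 2.38-fold in H47_KO, 2.87-fold in VP64_Ctrl and 2.58-fold in VP64_A. COL6A2 rose by a log2 fold change of 1.16 in H47_Ctrl (SE 0.212, adjusted p = 1.82e-04), 1.13 in H47_KO, 0.90 in VP64_Ctrl and 0.81 in VP64_A. COL6A1 rose by 0.72, 0.79, 1.11 and 0.69 in the same order of lines. COL6A3, their partner chain, did not pass the test in any line, with log2 fold changes of -0.26, -0.24, -0.51 and -0.28 and a lowest adjusted p of 0.0706 in VP64_Ctrl. COL4A2 also passed in none, with values between 0.12 and 0.33.

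COL12A1 fell by 0.94 on the log2 scale in H47_Ctrl (SE 0.173, adjusted p = 1.84e-04), by 0.50 in H47_KO (adjusted p = 0.042), by 0.78 in VP64_Ctrl and by 0.61 in VP64_A. COL8A1 was less uniform. It fell by 1.07 in H47_Ctrl (SE 0.168, adjusted p = 1.95e-05) and by 0.76 in H47_KO (SE 0.154, adjusted p = 4.84e-04). In VP64_Ctrl its log2 fold change was 0.48 (SE 0.169, adjusted p = 0.0506) and in VP64_A -0.38 (SE 0.197, adjusted p = 0.223), so neither passed. The 3 VP64_Ctrl libraries at 24 h, at 62.4 to 78.4 CPM, lay above the 9 earlier ones, which reached 51.0 CPM.

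**Figure D5:**
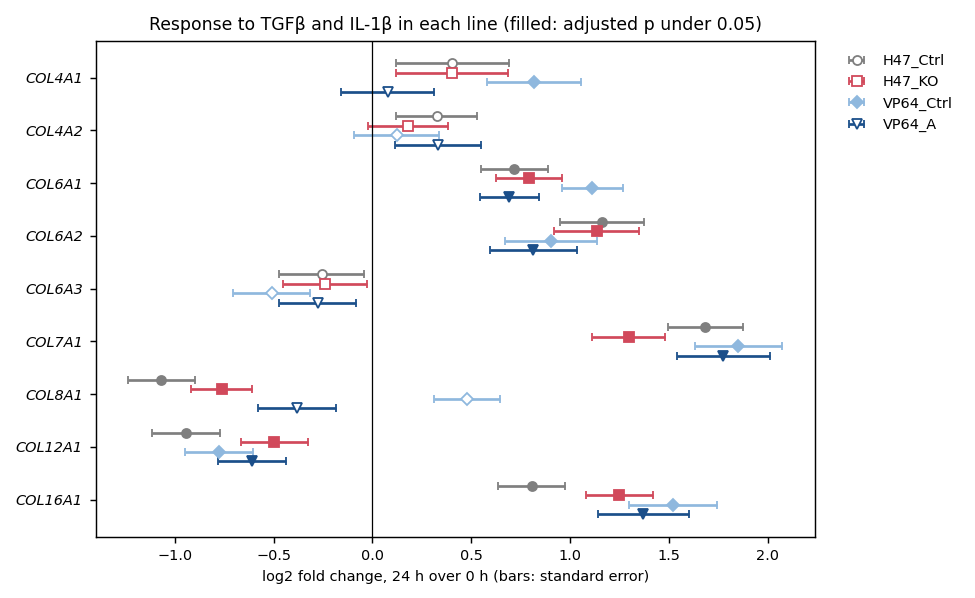
Log2 fold change from 0 h to 24 h with TGFβ and IL-1β (x axis, bars give the standard error) of 9 collagen genes in the 4 lines. Filled symbols have an adjusted p under 0.05, and COL15A1 is not drawn. COL7A1 lies furthest to the right and COL12A1 left of 0 in all 4 lines, and COL8A1 spans -1.07 in H47_Ctrl to 0.48 in VP64_Ctrl.

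The response at 6 h was tested in the control lines. In H47_Ctrl COL7A1 (log2 fold change 0.90, adjusted p = 7.13e-04) and COL16A1 (0.68, adjusted p = 0.00426) were higher, 2 of 10 beside 10.3% of genes. In VP64_Ctrl these were higher as well (0.91 and 1.08), with COL4A1 (1.43, SE 0.242, adjusted p = 3.38e-05) and COL6A3 (0.57, SE 0.194, adjusted p = 0.0258), 4 of 9 beside 16.2% of genes. COL12A1 was lower in VP64_Ctrl at 6 h (-0.48, SE 0.172, adjusted p = 0.0358), 1 of 9 beside 12.6%. COL6A1 and COL6A2, which were higher at 24 h, had not passed the test at 6 h (0.13 and 0.42 in H47_Ctrl, 0.21 and 0.28 in VP64_Ctrl).

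The members were then set beside other matrix genes, by lists that were written down with earlier results of these data known. Of 23 further non-fibrillar collagens 5 were tested. In H47_KO their log2 fold changes lay between -0.15 and 0.41 and did not pass, and in VP64_A 2 were higher, beside 9.15% of all genes: COL4A5 (log2 fold change 0.74), a further type IV chain, and COL18A1 (0.39), the precursor of endostatin. Of 11 fibrillar collagens 7 were tested. COL3A1, the chain of type III, was lower in H47_KO (-0.61, SE 0.157, adjusted p = 0.0226) and higher in VP64_A (0.83), the same pair of directions as the type VI chains. COL11A1 (2.29), COL5A1 (1.46), COL1A1 (1.14), COL1A2 (0.90) and COL5A2 (0.48) were higher in VP64_A as well, 6 of 7 in all beside 9.15% of all genes, and did not pass in H47_KO, where their log2 fold changes were between -0.48 and -0.06. The median over the 7 was -0.23 in H47_KO and 0.90 in VP64_A.

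Of 20 laminins, nidogens, proteoglycans and other basement membrane and pericellular partners, 19 were tested. In H47_KO NID2, which links laminin to type IV collagen, was higher (log2 fold change 0.77, SE 0.089, adjusted p = 1.04e-06) and DCN, a proteoglycan that coats collagen fibrils, was lower (-1.30, SE 0.119, adjusted p = 1.01e-08). Both moved the same way in VP64_A (0.77 for NID2 and -0.41 for DCN), so they did not share the opposed pattern of COL6A1 and COL8A1. In VP64_A 5 of 19 were higher, beside 9.15% of all genes, led by SPARC (1.19), a collagen-binding glycoprotein. In the same line 6 were lower, beside 9.23%, among them LAMA3 (-0.91), a laminin chain, and the proteoglycan BGN (-0.73). The median over the 19 was 0.05 in H47_KO and -0.18 in VP64_A.

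Of 11 collagen receptors 10 were tested. ITGA11, an integrin chain that binds fibrillar collagen, was higher in both targeted lines, by a log2 fold change of 1.42 in H47_KO (SE 0.168, adjusted p = 1.27e-06) and 4.07 in VP64_A (SE 0.158, adjusted p = 1.97e-19). In VP64_A ITGB1, its partner chain, was also higher (0.41). CSPG4, a proteoglycan that binds type VI collagen, was lower in VP64_A (-0.87), as were ITGA1 (-0.68), ITGA2 (-0.50) and ANTXR2 (-0.61). In all, 2 of 10 receptors were higher and 4 lower in VP64_A, beside 9.15% and 9.23% of all genes, and 1 was higher in H47_KO, beside 1.98%.

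Across libraries, the gene whose level was most like that of COL6A1 was COL6A2, out of 10691 genes, with a Pearson r of 0.87 over the 24 libraries of the CRISPRko arm and 0.915 over those of the CRISPRa arm. FBLN2, MEGF6, DDIT4 and TGFBI followed. The genes most like COL4A1 were SEC23A (0.833 and 0.824), a coat protein of vesicles that leave the endoplasmic reticulum, then EIF4H and WNT5A. Those most like COL8A1 were GLT8D2 (0.829 and 0.853), MOXD1, ACKR4, PSG5 and PCDH10. Genes were ranked by the smaller of their r values in the 2 arms. These values are descriptions, since the libraries share lines, times and processing.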

How the data were processed

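RNA of human fibroblasts was sequenced in 48 libraries of 4 lines, 4 times and 3 replicates. Groups, times and replicate numbers were taken from the sample descriptions. The authors trimmed reads (Trim Galore), removed ribosomal RNA (SortMeRNA), aligned to GRCh38 (STAR) and quantified genes with Salmon; versions, annotation and strand are not given in the sources used here. They deposited estimated counts, not normalized between libraries, and TPM, which the authors' Salmon step scaled for transcript length and to one total per library. Of the 29744 genes' estimated counts 6.38% were not whole. Salmon divides reads between similar transcripts, which can move counts between overlapping genes, and 2321990 to 10661004 counts per library limit precision for low genes such as COL15A1.

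Rounded counts entered edgeR 4.0.16 under R 4.3.3, one model per arm with 24 libraries and 8 line-by-time groups, using TMM, filterByExpr (minimum count 10, total 15), the two-sided quasi-likelihood test, Benjamini-Hochberg over all genes tested, threshold 0.05. The methods of the study name DESeq2, which was an alternative here. Normalized CPM uses TMM-scaled totals, set within an arm. Chain ratios used (count + 0.5) and exact permutation within times. Of 48 replicate pairs 0 were identical (chi-square per degree of freedom at least 3.8). In simulated counts 78.4% of genes changed by log2 1 were recovered in the averaged CRISPRko contrast and 81.6% in the averaged CRISPRa contrast (10727 and 10849 genes), with 5.56% and 3.28% false calls. At 24 h alone 52.6% were recovered for H47_KO over H47_Ctrl and 45.9% for VP64_A over VP64_Ctrl. A missing call at a single time is thus weak evidence of no change.

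The members and lists were chosen with earlier results of these data known. Named are all members, GLIS3, at most 6 called genes per list and arm, and at most 5 genes most like COL6A1, COL4A1 and COL8A1. Some genes that this rule names are not reported here. Alternatives were DESeq2 1.42.0, its size factors in edgeR, no count filter, limma 3.58.1 on TPM (log2 with 1 or 0.1 added), a replicate block, a fit of only the 6 libraries compared, and each library left out in turn. The difference in response between control lines was added after seeing the data.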

Additional observations from a re-analysis of the deposited data

Results flagged for a closer look

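COL8A1 responded differently to TGFβ and IL-1β in the 2 control lines. Its log2 fold change from 0 h to 24 h was -1.07 in H47_Ctrl and 0.48 in VP64_Ctrl, and the difference was -1.54 (SE 0.237, adjusted p = 1.26e-04) in an edgeR fit over all 48 libraries that was added after seeing the data. All 3 H47_Ctrl libraries were lower at 24 h than at 0 h, and all 3 VP64_Ctrl libraries were higher. That fit called 0.42% of 11422 genes in this direction and no other member in either direction, COL16A1 coming next with -0.71 (SE 0.293, adjusted p = 0.48). With limma on log2(TPM + 1) the difference was -1.31 (adjusted p = 0.053). The control lines differ in the Cas9 protein and the guide vector they carry. Whether both arms came from the same clone is not stated in the sources used here. They also differ in the sum of smooth muscle and pericyte markers (412 to 1400 CPM in H47_Ctrl, 37.7 to 123 in VP64_Ctrl). That sum is mainly ACTA2, with a median of 265 CPM over all libraries beside 0 to 1.29 for the rest of the list. With a single control line per arm the parts of these differences cannot be told apart, and none was tested.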

How the results depend on the processing

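Counts of members called were recomputed under each alternative, and no called value of a member changed sign. The averaged contrasts kept their counts within 1.5 times. With limma on log2(TPM + 1) and log2(TPM + 0.1), the count was 3 for 24 h over 0 h in VP64_A (5 in edgeR), 0 for 6 h over 0 h in H47_Ctrl (2), 0 for H47_KO at 0, 6 and 12 h (1 each), 4 for VP64_A at 0 h (7) and 2 at 12 h (5), and COL4A2 in VP64_A (averaged) was no longer called (adjusted p = 0.436 and 0.453). On these scales the median of all genes itself moved, by up to -0.81 (6 h over 0 h in VP64_Ctrl). DESeq2 called 2 members for H47_KO at 0, 12 and 24 h. Without the count filter 3 were called at 0 and 12 h, 2 at 6 and 24 h, and 3 for 6 h over 0 h in VP64_Ctrl (5). With only the 6 libraries compared the counts were 2 at 0 and 12 h, 0 at 6 h and 3 for 6 h over 0 h in VP64_Ctrl. No pairing of the libraries by replicate number was seen (correlations of -0.053 to 0.14, 2 of 12 pairs per arm over 0.1, 5 of 12 libraries per arm closest to their own number). With 3 libraries per group this check cannot exclude a pairing. A replicate block gave 0 members for H47_KO at 6 h and changed no other count by over 1.5 times. With 1 library left out the counts ran from 0 to 1 for H47_KO at 0 h, 0 to 2 at 12 h, 0 to 3 at 24 h and 0 to 0 at 6 h, from 3 to 5 for VP64_A at 12 h, for 24 h over 0 h in VP64_A and for 6 h over 0 h in VP64_Ctrl. The log2 difference in H47_KO ran from -0.43 to -0.26 for COL4A1 over COL4A2. Leaving out any 1 of 8 libraries brought its unadjusted permutation p under 0.05. For COL6A1 over COL6A3 the difference ran from -0.28 to -0.14, and leaving out H47_KO replicate 2 at 24 h did the same. The adjusted p was not recomputed for these. The cause of these shifts was not tested.

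Values that changed sign were never called. With limma on log2(TPM + 0.1) and log2(TPM + 1) they were, in H47_KO, COL12A1 at 6 h (-0.0996 and -0.0977), COL16A1 at 12 h (-0.0635 and -0.0602) and 6 h (-0.353 and -0.338), COL4A1 at 6 h (-0.455 and -0.452), COL4A2 at 12 h (-0.0138 in both) and 24 h (0.203 and 0.201) and COL7A1 at 24 h (0.172 and 0.163), and COL15A1 at 0 h on the first scale (0.162). In VP64_A they were COL4A2 at 0 h (-0.36 and -0.356) and 24 h (-0.101 and -0.1). COL4A1 in H47_KO at 6 h was -0.0123 without the filter, -0.0029 with 6 libraries and -0.0342 under the replicate block. With 1 library left out the values ran, in H47_KO, from -0.991 to 0.027 for COL15A1 at 0 h and -5.72 to 0.0218 at 12 h, from -0.0938 to 0.183 for COL16A1 at 12 h, -0.0267 to 0.287 at 24 h, -0.055 to 0.117 at 6 h and -0.0544 to 0.0248 averaged, from -0.357 to 0.0334 for COL4A1 at 12 h and -0.282 to 0.284 at 6 h, from -0.0951 to 0.0651 for COL4A2 at 0 h, -0.104 to 0.236 at 12 h and -0.309 to 0.0241 at 24 h, from -0.0336 to 0.405 for COL7A1 at 0 h and -0.169 to 0.0652 at 6 h, and, in VP64_A, from -0.147 to 0.292 for COL4A2 at 0 h. Depth limits COL15A1 most, at 22 counts or fewer.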
